A study of Homo sapiens with 2 samples.

Results

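The neurotensin system was followed through 4 genes in HCT116 cells, a widely used line from a human colorectal carcinoma. The genes were picked by name and are the receptors NTSR1 and NTSR2, the peptide precursor NTS, and SORT1, which encodes sortilin. Of these 4 genes, 3 had a row among the 31798 of the deposited table and NTSR2 had none, so no value is given for it. NTSR1 was picked because its level differed so much between the libraries, so that difference is described here and not tested. There were 2 libraries, 1 per group. In one group HCT116 cells carried the genotype SRD5A1 knockdown and in the other the genotype control. Their titles add the tags Dox and KD, in that order, with no explanation, and neither the way the knockdown was made nor the number of clones or cultures is given. With 1 library per group nothing could be said about the spread between cultures, and every comparison is of these 2 libraries.

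Neurotensin is a short peptide made by endocrine cells of the small intestine and by neurons, where it is cut out of a longer precursor by prohormone convertases. It acts mainly through NTSR1, a receptor that couples to Gq/11 proteins and through them to phospholipase C-beta, inositol trisphosphate, calcium release and protein kinase C, and from there to the ERK kinases. NTSR2 is a related receptor best known from the brain. Sortilin, also called the type 3 neurotensin receptor, is a sorting receptor of the VPS10 domain family that carries neurotensin and many other cargoes between the Golgi, endosomes and the cell surface. In colorectal cancer NTSR1 is known as a receptor through which neurotensin promotes growth.

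The upstream sequences of the 3 measured genes are shown because they are of very different base composition. How the base composition of upstream sequence relates to the differences between the libraries was not tested. Each line gives the 250 bases before the RefSeq start (GRCh38.p14), read 5′ to 3′ on the strand of the gene. Capitals mark matches, on either strand, to the GC box GGGCGG, the TATA-like motif TATANA, the AP-1 element TGANTCA, the CRE-like motif TGACNTCA and the TCF core CTTTGA. The regions are chr20:62708586-62708835 on the plus strand for NTSR1, chr1:109397919-109398168 on the minus strand for SORT1 and chr12:85874045-85874294 on the plus strand for NTS.
NTSR1: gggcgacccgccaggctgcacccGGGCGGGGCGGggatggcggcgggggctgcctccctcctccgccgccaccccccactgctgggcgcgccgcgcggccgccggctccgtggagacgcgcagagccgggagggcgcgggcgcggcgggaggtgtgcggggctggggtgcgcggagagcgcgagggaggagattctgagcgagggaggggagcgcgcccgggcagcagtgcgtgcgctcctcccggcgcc
SORT1: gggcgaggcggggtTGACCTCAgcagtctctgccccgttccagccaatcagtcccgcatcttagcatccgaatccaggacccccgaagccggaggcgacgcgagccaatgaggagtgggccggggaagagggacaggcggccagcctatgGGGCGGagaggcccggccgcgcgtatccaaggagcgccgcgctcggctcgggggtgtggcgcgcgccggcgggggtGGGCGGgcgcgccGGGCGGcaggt
NTS: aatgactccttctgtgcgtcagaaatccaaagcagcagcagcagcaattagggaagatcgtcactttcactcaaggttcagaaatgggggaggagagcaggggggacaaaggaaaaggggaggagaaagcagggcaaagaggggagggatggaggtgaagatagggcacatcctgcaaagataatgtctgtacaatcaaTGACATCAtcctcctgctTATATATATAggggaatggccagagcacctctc
The NTSR1 window was 82% G or C with 38 CpG dinucleotides, and 98.3% of 35114 RefSeq windows of this length had a lower GC content. It held 2 GC boxes that share a base and no match to the other motifs. The SORT1 window was 74% G or C with 32 CpG dinucleotides, 3 GC boxes and 1 CRE-like match. The NTS window was 49.2% G or C with 2 CpG dinucleotides, 1 CRE-like match and a run holding 3 overlapping TATA-like matches. Over all windows the median GC content was 58%, and the GC box was present in 42.6%, the TATA-like motif in 17.7%, the AP-1 element in 6.57%, the CRE-like motif in 6.87% and the TCF core in 11.2%. These are matches of letters and say nothing of which factors bind.

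The knockdown library held 54740670 counts and the control library 41814981. SRD5A1, the targeted gene, was at 6.25 FPKM (3119 counts) in the library labelled knockdown and 10.8 FPKM (4101 counts) in the control, where FPKM, a level per transcript length, counts fragments per kilobase against the size of the library. Its ratio of CPM (counts scaled to 1000000 per library), knockdown over control, was 0.581 (exact 95% interval 0.554 to 0.609). In log2(FPKM + 1), knockdown minus control, SRD5A1 was at -0.70. From the highest difference down it ranked 8980 of 10143 expressed genes (mean FPKM of at least 1), so other genes lay further down. Intervals here cover counting error only and not the spread between cultures, because there was 1 library per group. The reads carry no molecular identifiers and cannot be taken as separate molecules, so even the counting error may be understated. Epithelial keratins were abundant in both libraries (KRT8 at 414 and 256 FPKM, KRT19 at 731 and 609), as was EPCAM (30.2 and 39.7), whereas LGALS4 had 0 counts in both and VIL1 4 and 0. Of the 8 colorectal epithelial markers 6 were expressed, among them CDX2 at 7.00 and 0.767 FPKM and KRT18 at 346 and 74.5, and the list summed to 1545 and 990 FPKM. Marker lists of fibroblasts, adipocytes and immune cells summed to 0.117 to 3.11 FPKM in the knockdown library and 0.319 to 7.93 in the control, with DCN, PDGFRA, LPL and CD3E at 0 counts in both. Most of the fibroblast sum was COL1A1, at 2.39 and 4.02 FPKM, and most of the immune sum was CD68, at 1.28 and 7.79 FPKM. The fibroblast marker COL3A1 had 263 and 39 counts and the adipocyte marker PLIN1 had 0 and 61. The part of these marker differences in the results that follow was not tested. In RNA from whole cultures, fewer expressing cells and less RNA per cell cannot be told apart.

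NTSR1 was far more abundant in the knockdown library. NTSR1 (ENSG00000101188, GRCh38 chromosome 20, 62708836 to 62762771, plus strand, protein-coding) stood at 174 FPKM, from 48126 counts, in the knockdown library. In the control library it stood at 5.96 FPKM, from 1262 counts. The ratio of CPM was 29.1 (exact 95% interval 27.5 to 30.8). On the log2(FPKM + 1) scale, on which differences are given from here on as knockdown minus control, the levels were 7.45 and 2.80 and the difference 4.65. The median difference over all 10143 expressed genes (mean FPKM of at least 1) was 0.30, and NTSR1 lay 4.35 above it.

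**Figure D1:**
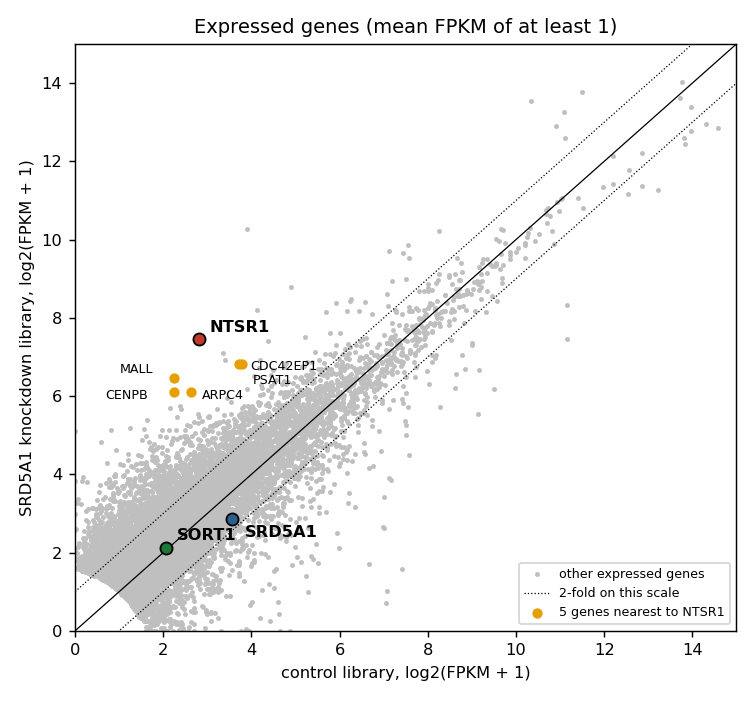
Level of each expressed gene in the control library (x axis) and the SRD5A1 knockdown library (y axis), both as log2(FPKM + 1), 1 library each. The solid line marks equal levels and the dotted lines a 2-fold difference on this scale. NTSR1, at 2.80 and 7.45, lies far above the upper dotted line with its 5 nearest genes below it, while SORT1 lies by the line of equal levels.

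In the control library 3972 of the 28615 gene symbols had a higher FPKM than NTSR1, and in the knockdown library 224 did. Its transcripts made up 0.00302% of the control counts and 0.0879% of the knockdown counts. No protein-coding gene among the 8810 expressed had a larger difference. The 2 symbols above it, named here after their values were seen, were the short RNAs MT-TI and MIR4707. Of the 3 members in the table, 2 were expressed, and NTSR1 was the 1 of these that was higher by 2-fold or more (a difference of at least 1), as were 20.9% of all expressed genes (2115 genes). At least 2-fold lower were 693 genes, 6.83%. The split of these genes moved with the scaling: 75.3% of those 2-fold apart were on the higher side in FPKM, 60.3% with TMM factors, 51.7% with the median ratio set to 1 and 43.4% with the upper quartile. Since NTSR1 was chosen on this contrast, nothing is read from its place in these counts.

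The annotation lists 2 NTSR1 transcripts, a protein-coding one of 4 exons and 4132 bases and a processed transcript of 3 exons and 2950 bases, and the table assigns both to the gene. The deposited values are given per gene, so they do not tell which transcript the reads came from. An antisense gene inside the NTSR1 locus, AL357033.2, had 4 and 7 counts in the knockdown and control libraries. The use of strand is not stated, and these counts are few beside the 48126 and 1262 of NTSR1.

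The NTSR1 transcript is rich in G and C, at 64.2%, and 93.0% of expressed genes had a lower GC content. Differences varied with this property, from a median of 0.03 in the tenth of genes with the lowest GC content to 0.46 in the eighth and 0.39 in the highest. Among 911 other genes within 2 percentage points of the GC content of NTSR1, the median difference was 0.44, the 95th percentile 2.16 and the highest 4.31. Among the 312 of these with a length within 0.5 on the log2 scale, the highest difference was 3.52. With the trend over GC content and length removed, NTSR1 was at 4.51 and its rank among expressed genes moved from 3 to 5. NTSR1 was picked for its difference, so its place above these genes is a description and supports nothing.

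**Figure D2:**
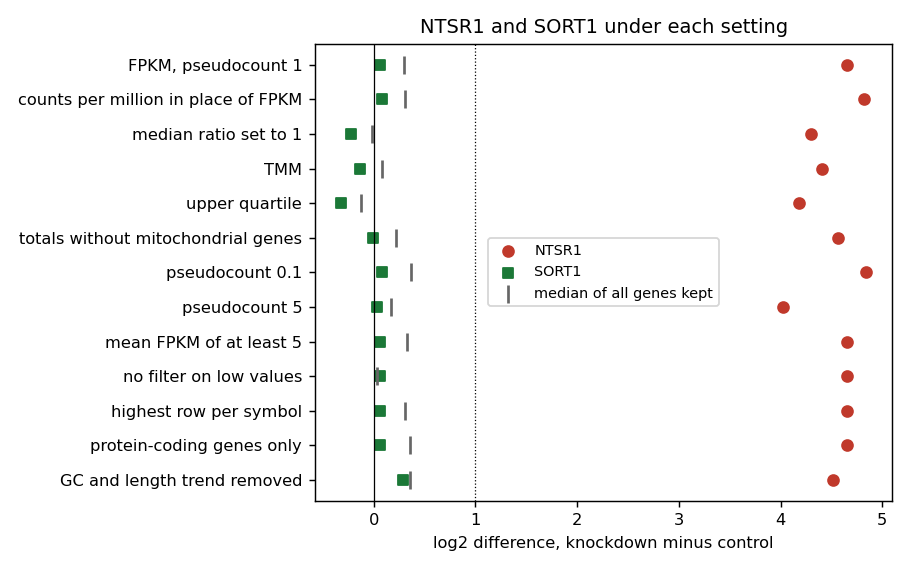
Difference of NTSR1 (circles) and SORT1 (squares), knockdown minus control on a log2 scale, under the reported measure (top) and 12 other settings, with the median of all genes kept as a tick. NTSR1 lies between 4.03 and 4.84 throughout, while SORT1 lies between -0.32 and 0.29 and so on both sides of 0.

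SORT1 differed little between the libraries. SORT1 (ENSG00000134243, chromosome 1, 109309568 to 109397918, minus strand, protein-coding) was at 3.36 FPKM (2008 counts) in the knockdown library and 3.17 FPKM (1447 counts) in the control. This is a ratio of CPM of 1.06, and its exact 95% interval, 0.990 to 1.13, includes 1. The difference was 0.07, below the median of all expressed genes, and 38.6% of them had a smaller value. It changed sign when the median ratio was set to 1, with TMM, with the upper quartile and with mitochondrial genes left out of the totals, down to -0.32. Relative to the median of all genes, SORT1 lay between -0.29 and 0.03 over all settings. In the control library SORT1 and NTSR1 were at 3.17 and 5.96 FPKM, and in the knockdown library at 3.36 and 174 FPKM.

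The peptide precursor was scarcely detected. NTS (ENSG00000133636, chromosome 12, 85874295 to 85882992, plus strand, protein-coding) had 0 counts in the knockdown library and 18 counts in the control (exact Poisson 95% interval 10.7 to 28.4), the latter 0.217 FPKM. The 0 counts are compatible with as many as 3, which is 0.0548 CPM in the knockdown library, and the control level of 0.430 CPM was 7.85 times this floor when its 18 counts are taken as exact. With counting error in both libraries, the exact 95% lower bound of the ratio of CPM, control over knockdown, was 5.76. NTS did not reach the mean of 1 FPKM that counted as expressed. The ligand gene was thus at a low level in the control library. It was undetected in the knockdown library, in which the receptor was at 174 FPKM. Of 8 markers of enteroendocrine cells, the intestinal cells that make neurotensin, 2 were expressed, SYP at 0.746 and 1.90 FPKM and SCG2, a granule protein, at 9.83 and 13.8 FPKM. CHGA had 0 counts in both libraries, PYY was at 0.604 and 0.552 FPKM, and the whole list summed to 11.3 and 16.4 FPKM.

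**Figure D3:**
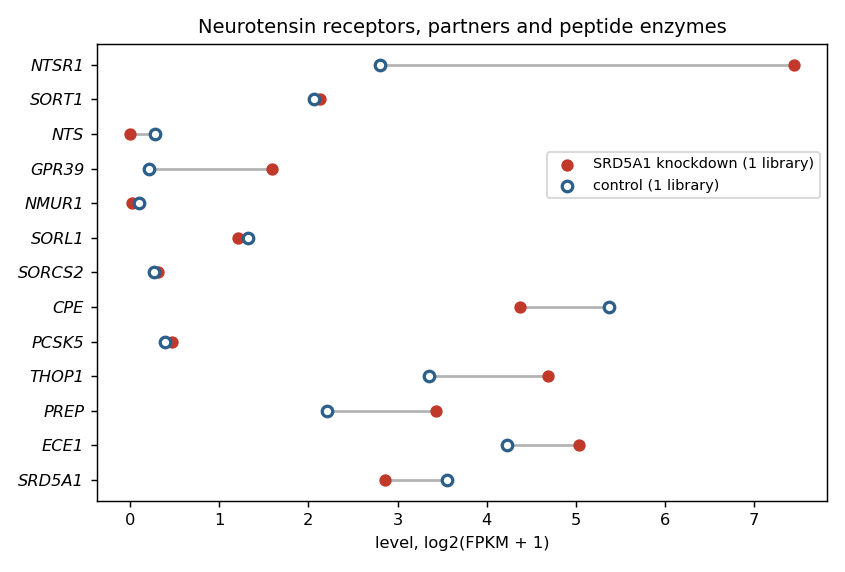
Level of NTSR1, SORT1, NTS, selected relatives, processing enzymes and peptidases, and SRD5A1, as log2(FPKM + 1), in the SRD5A1 knockdown (filled) and control (open) library, 1 library each, with a line joining the 2 values of a gene. The line of NTSR1, from 2.80 to 7.45, is by far the longest, and the symbols of SORT1 nearly coincide.

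The convertases that could cut the precursor were mostly undetected as well. PCSK1, the convertase PC1/3, and SCG5, the chaperone of PC2, had 0 counts in both libraries, and PCSK2 had no row. PCSK5, a further convertase, was at 0.387 and 0.314 FPKM. PCSK1N, which encodes an inhibitor of PC1/3, had 0 and 21 counts. CPE, the carboxypeptidase that trims peptide ends after cleavage, was the 1 gene of 6 that was expressed, at 19.8 FPKM in the knockdown library and 40.3 in the control. Its difference was -0.99, just short of 2-fold on this scale, and the ratio of CPM was 0.491 (0.472 to 0.511). Over the settings the difference ran from -1.48 to -0.87, and so on both sides of that limit.

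Enzymes that break neurotensin down were present in both libraries. THOP1, thimet oligopeptidase, was at 24.8 and 9.23 FPKM in the knockdown and control libraries, a difference of 1.34. PREP, prolyl endopeptidase, was at 9.77 and 3.64 FPKM, a difference of 1.21. ECE1, an endothelin-converting enzyme that also cleaves neurotensin in endosomes, was at 31.8 and 17.8 FPKM, and its difference of 0.81 did not reach 2-fold. NLN, neurolysin, the closest relative of THOP1, was at 1.27 and 0.604 FPKM, under the mean level that counted as expressed. ACE was at 1.43 and 1.14 FPKM, and MME, neprilysin, had 0 counts in both. Of the 4 expressed peptidases 2 were at least 2-fold higher and 0 lower, with a median of 1.01 beside 0.30 over all expressed genes. Over all expressed genes 20.9% were higher and 6.83% lower by as much. With the median ratio set to 1 or the upper quartile that count was 0, with TMM or a pseudocount of 5 it was 1, and the median lay between 0.56 and 1.21 over all settings.

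Among the receptors closest to NTSR1 in sequence, those for ghrelin, motilin and neuromedin U, GPR39 reached a mean of 1 FPKM, and it did so through the knockdown library alone. GPR39, a zinc-sensing receptor, was at 2.01 FPKM (419 counts) in the knockdown library and 0.162 FPKM (26 counts) in the control. This is a ratio of CPM of 12.3 (8.28 to 19.1) and a difference of 1.38. NMUR1 had 4 and 12 counts, MLNR had 0 in both, and GHSR and NMUR2 had no row.

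Of 49 receptors for other peptides and related ligands, 33 had a row and 6 were expressed, of which 3 were at least 2-fold higher and 0 lower (median 0.76), beside 20.9% and 6.83% of all expressed genes. The 3 became 5 in CPM, 2 with the upper quartile, and 1 with a pseudocount of 5 or a filter at a mean FPKM of 5. The filter bears on these counts. KISS1R passed it through the knockdown library alone, and SSTR3, a somatostatin receptor named after its values were seen, did not pass it, at 0.0429 against 0.778 FPKM (14 and 182 counts, a ratio of CPM of 0.0588). KISS1R, the kisspeptin receptor, was at 4.84 FPKM (528 counts) against 0.238 (20 counts), a difference of 2.24 and a ratio of CPM of 20.2 (12.9 to 33.3). The somatostatin receptor SSTR5 was at 14.0 against 4.27 FPKM (1.50) and the melanocortin receptor MC1R at 4.55 against 1.19 (1.34). The protease-activated receptor F2RL1, the most abundant of the list in the control library, was at 54.0 and 54.7 FPKM. F2R, the thrombin receptor, was at 5.96 and 5.18 FPKM and GIPR at 1.53 and 1.23, and the signs of F2RL1, F2R and GIPR turned under some settings. NTSR1 was above every receptor of this list in the knockdown library, and below F2RL1 in the control library.

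The table's own KEGG annotation gave a wider set, examined after the values were seen. Of 240 symbols annotated to neuroactive ligand-receptor interaction, 49 were expressed, 11 of them at least 2-fold higher and 2 lower, with a median of 0.38. These shares are near the 20.9% and 6.83% of all expressed genes, so the counts are no result about the set. NTSR1 had the highest FPKM of the set in the knockdown library, ahead of TSPO at 79.7, and ranked 14 in the control library. After NTSR1 the largest differences were those of KISS1R and the adenosine receptor ADORA2B (21.5 against 4.06 FPKM, 2.16), and the lowest was that of another adenosine receptor, ADORA2A (0.226 against 3.38 FPKM, -1.84).

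In the VPS10 domain family SORT1 and its relative SORL1 were the expressed members, and neither was 2-fold apart. SORL1, which sorts the amyloid precursor protein and other cargoes, was at 1.31 and 1.50 FPKM in the knockdown and control libraries, a difference of -0.12 that turned sign with the GC and length trend removed. SORCS2 was at 0.248 and 0.203 FPKM, SORCS1 had 0 counts in both libraries and SORCS3 had no row.

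Genes for the traffic, cargo and co-receptors of sortilin were nearly all expressed (17 of 19), with 4 at least 2-fold higher and 0 lower, beside 20.9% and 6.83% of all expressed genes, so the share on the higher side was near that of all genes. The 4 became 2 with the median ratio set to 1, TMM, the upper quartile or a pseudocount of 5. It became 5 with a pseudocount of 0.1 and 6 in CPM. Their median of 0.30 was that of all expressed genes, and it turned sign with the median ratio set to 1 and the upper quartile. The genes behind the 4 were the cation-dependent mannose phosphate receptor M6PR (37.5 against 8.20 FPKM, 2.06), the cation-independent one, IGF2R (8.77 against 1.77, 1.82), the retromer subunit VPS29 (6.84 against 2.55, 1.14) and the protease FURIN, which removes the propeptide of sortilin (34.5 against 16.6, 1.02). The mannose phosphate receptors sort lysosomal enzymes between the same compartments as sortilin. The sorting nexin SNX1 was at 0.91, the retromer subunit VPS35 at 0.53 and SNX5 at -0.36.

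**Figure D4:**
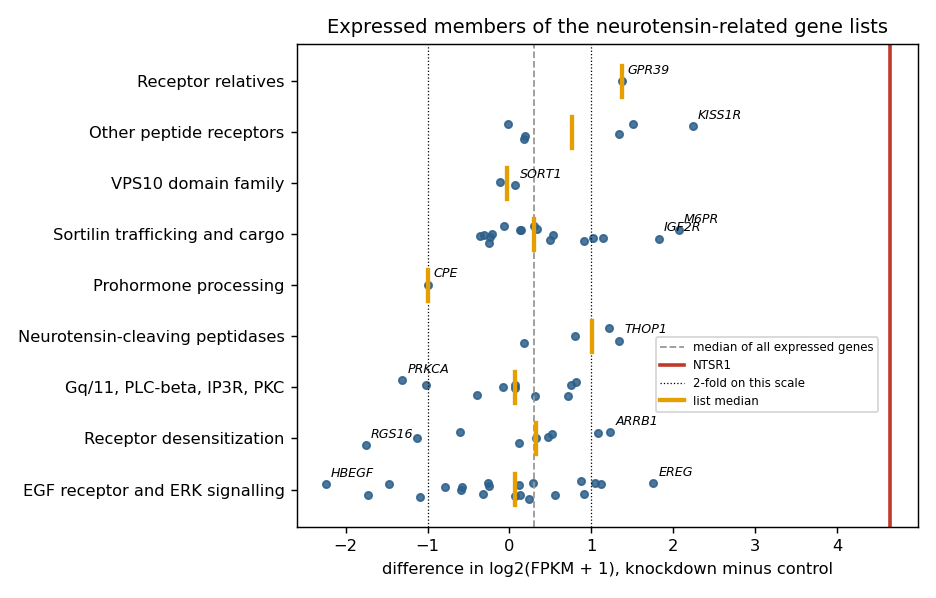
Difference in log2(FPKM + 1), knockdown minus control, of each expressed member of 9 gene lists (points), with the list median (bar), the median of all expressed genes at 0.30 (dashed), the 2-fold limits (dotted) and NTSR1 at 4.65 (solid line). The highest point, KISS1R, is at 2.24, and the EGF receptor and ERK list spreads from -2.25 to 1.75.

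Genes of the pathway below the receptor were mostly expressed as 1 form at each step. Of 23 genes for Gq/11 subunits, phospholipase C-beta, inositol trisphosphate receptors and protein kinases C and D, 10 were expressed. Of these, 0 were at least 2-fold higher and 2 lower, beside 20.9% and 6.83% of all expressed genes. The 0 became 3 in CPM. The Gq/11 subunit GNA11 was at 21.1 and 12.1 FPKM (0.75) and the phospholipase PLCB3 at 41.7 and 23.3 FPKM (0.81), each the most abundant of its kind in both libraries. ITPR3, named here after its values were seen, was the inositol trisphosphate receptor expressed, at 43.3 and 41.5 FPKM. GNAQ was at 0.916 and 1.53 FPKM, a difference of -0.40 whose sign turned with the GC and length trend removed. PRKCA, a classical calcium-dependent protein kinase C, was at 1.42 against 5.03 FPKM (-1.32). PRKD2, a protein kinase D, was at 19.8 against 41.2 FPKM (-1.02). PRKCD, a calcium-independent form, was at 0.71. The list median, 0.06, turned sign in 6 of 12 settings.

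Genes that shut such receptors off went both ways. Of 13, 9 were expressed, with 2 at least 2-fold higher and 2 lower, and a median of 0.32 that turned sign in 2 of 12 settings. Over all expressed genes 20.9% were higher and 6.83% lower. The 2 on the higher side were the arrestin ARRB1 (6.70 against 2.28 FPKM, 1.23) and RGS19 (10.6 against 4.45, 1.08). That count was 0 with the upper quartile, the median ratio set to 1 or a pseudocount of 5. It was 1 with TMM, a filter at a mean FPKM of 5 or the GC and length trend removed, and 3 in CPM. RGS16 (4.32 against 17.0 FPKM, -1.76) and RGS2, which acts on Gq (1.39 against 4.24, -1.13), were lower. RGS proteins speed the shut-off of G proteins and arrestins uncouple the receptor. RGS3 was at 0.53 and the receptor kinase GRK5 at -0.61.

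The genes of EGF receptor and ERK signalling, through which neurotensin acts in colon cells, also went both ways. Of 24, 21 were expressed, 3 at least 2-fold higher and 4 lower, with a median of 0.07 that turned sign in 4 of 12 settings. The shares over all expressed genes were 20.9% and 6.83%, and the 3 became 1 with the median ratio set to 1, TMM, the upper quartile or a pseudocount of 5. The EGF receptor ligands differed among themselves. HBEGF was at 2.51 against 15.7 FPKM (-2.25) and AREG at 171 against 368 (-1.10), whereas EREG was at 12.0 against 2.86 (1.75). The immediate early transcription factors EGR1 (131 against 438 FPKM, -1.73) and JUN (49.5 against 139, -1.47) were lower in the knockdown library. ERK and related kinases induce both. FOS and MYC, named here after their values were seen, were at -0.79 and 0.88. Over the settings FOS reached -1.28 at the lowest and AREG -0.99 at the highest. The 4 on the lower side thus also moved with the setting. How these levels relate to that of NTSR1 was not tested. The receptor ERBB2 was at 14.4 against 6.11 FPKM, a difference of 1.11 that ran from 0.66 to 1.22 over the settings.

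The genes around NTSR1 differed among themselves. Of the 10 protein-coding genes nearest to NTSR1, 5 on each side and up to 320 kb away, 8 were expressed, and 0 of these were 2-fold apart on the log2(FPKM + 1) scale in either direction, against 27.7% of all expressed genes. Their differences ran from -0.25 to 0.85 with a median of 0.26. SLCO4A1, a transporter 36.5 kb before NTSR1, was at 25.3 and 20.8 FPKM. MRGBP, a subunit of a histone acetyltransferase complex 33.7 kb after it, was at 24.9 and 25.1 FPKM. TCFL5, a transcription factor, had the highest difference of the expressed ones, at 5.24 against 2.47 FPKM. Its ratio of CPM was 2.13 (1.90 to 2.38) and its difference of 0.85 reached 1.06 at the highest over the settings. RBBP8NL, the third gene before NTSR1, was at 1.87 against 0.0844 FPKM (343 and 12 counts), a difference of 1.40 and a ratio of CPM of 21.8 (12.3 to 42.7). It is not in the count because its mean, 0.978 FPKM, fell just short of the expression limit. GATA5, also below that limit, had 0 and 33 counts. CABLES2 was at 0.75, DIDO1 at 0.65, COL9A3 at 0.25, OGFR at -0.17 and RPS21 at -0.25.

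Around SORT1, 6 of the 10 nearest coding genes were expressed, with 1 at least 2-fold higher, CYB561D1 (1.79 against 0.254 FPKM, 1.16), and 0 lower. Over all expressed genes 20.9% were higher and 6.83% lower by as much, so these counts are no result about the neighbourhood. CYB561D1 passed the expression limit through the knockdown library alone. PSMA5, a proteasome subunit whose gene ends 1.12 kb from the start of SORT1, was at 15.9 and 8.73 FPKM, and ATXN7L2 at 1.31 and 2.73. PSRC1 was at 0.31, SARS, a seryl-tRNA synthetase, at 0.30 and CELSR2, a cadherin, at 0.70. KIAA1324, C1orf194, SYPL2 and AMIGO1 were below the expression limit.

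**Figure D5:**
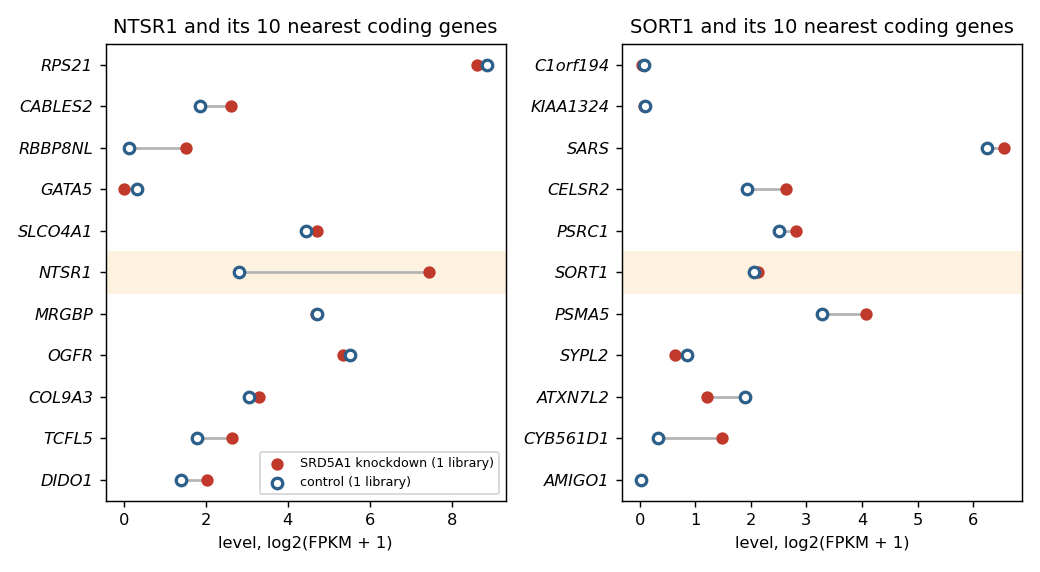
Level of NTSR1 (left) and SORT1 (right) and of the 5 protein-coding genes on each side, in chromosomal order from top to bottom, as log2(FPKM + 1) in the SRD5A1 knockdown (filled) and control (open) library. The expressed neighbours of NTSR1 differ by -0.25 to 0.85 and RBBP8NL, just under the expression limit, by 1.40, against 4.65 for NTSR1.

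Few genes had a pair of levels like that of NTSR1. Because NTSR1 was picked for the difference between these 2 levels, its distance from other genes is a description and supports nothing. Over the 2 libraries, the 5 protein-coding genes at the smallest distance from it in log2(FPKM + 1) were CDC42EP1 (a distance of 1.13), MALL (1.13), PSAT1 (1.17), ARPC4 (1.35) and CENPB (1.45). MALL, a proteolipid of the MAL family, was at 87.1 against 3.75 FPKM, a difference of 4.21, and CENPB, a centromere protein, at 68.3 against 3.74, a difference of 3.87. CDC42EP1, an effector of CDC42, was at 111 against 12.2 FPKM, PSAT1, an enzyme of serine synthesis, at 111 against 12.7, and ARPC4, a subunit of the Arp2/3 complex, at 67.9 against 5.17. SORT1, in a crowded range of levels, had its 5 nearest genes, AP1M1, RIOK1, UBP1, ULBP3 and LYN, at distances of 0.0150 to 0.0322.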

How the data were processed

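RNA of 2 HCT116 libraries, 1 labelled SRD5A1 knockdown and 1 labelled control, was compared. Per the labels' protocols, poly(A) RNA was selected from Trizol extracts and sequenced as paired ends, although the same text names adipose material. The submitters' processing notes list HISAT2 2.0, StringTie 1.3.0 and Bowtie 0.12.2 without saying what each did, and they name mm8, a mouse build. The deposited rows carry human Ensembl identifiers, and 69.2% of the 31659 that are in GENCODE release 29 have the same position on GRCh38. The authors deposited FPKM (levels per transcript length and library size) and raw counts per gene. Strand use and the counting program were not given in the sources used here.

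FPKM was summed by symbol (28615 symbols, 1802 on more than 1 row) and compared as log2(FPKM + 1). Expressed means a mean FPKM of at least 1, and 2-fold a difference of at least 1. The pseudocount shrinks the difference of genes at low levels. With 1 library per group there is no test. Ratios of counts scaled to 1000000 carry exact Clopper-Pearson 95% intervals, and floors are 3 counts. GC content is that of the longest GENCODE transcript. Named were the members, the lists of up to 6 genes in full, up to 6 expressed genes with the largest differences of longer lists, with 1 against the list median where there was one, the 5 nearest genes in level and the 5 on each side in position. The members and lists were chosen with earlier results of these data known. The steps were tested on simulated data with counting error only. Those data held no spread between cultures, no GC trend and no shift in scaling, so the steps were not tested against these. Alternatives were 4 other scalings and CPM, 2 pseudocounts, 2 filters, the highest row per symbol, protein-coding genes alone and removal of the GC and length trend with a smooth fit. Python 3.11.15, R 4.3.3, edgeR 4.0.16 and mgcv 1.9.3 were used.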

Additional observations from a re-analysis of the deposited data

How the results depend on the processing

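NTSR1 was more than 2-fold higher in the knockdown library in all 12 alternatives. Its difference was 4.82 in CPM, 4.30 with the median ratio set to 1, 4.41 with TMM, 4.18 with the upper quartile, 4.56 with mitochondrial genes left out of the totals, 4.84 and 4.03 with pseudocounts of 0.1 and 5, and 4.51 without the GC and length trend. SORT1 was at -0.23, -0.13 and -0.32 with the median ratio, TMM and the upper quartile, and at 0.29 without the trend. The genes at least 2-fold higher and lower, 2115 and 693, became 3383 and 1317 in CPM, 1293 and 1207 with the median ratio, 1096 and 1431 with the upper quartile, 730 and 278 with a pseudocount of 5, and 1136 and 345 when the filter was a mean FPKM of 5, where fewer genes were kept. For the rest the cause was not tested. With a pseudocount of 0.1, NTSR1 ranked 16 among expressed genes. No paired analysis was possible because each group has 1 library. The control depth limits GPR39 and KISS1R, with 26 and 20 counts there, and the knockdown depth limits NTS, with 0 counts.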
